A study of Homo sapiens with 4 samples.

Results

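Paired sites of chromatin signal were compared between 22RV1 cells given the CDK4/6 inhibitor PD0332991 (palbociclib) and the control of that treatment. 22RV1 is an established human prostate cancer cell line, grown in RPMI-1640 with serum. Each of the 2 groups held 1 CUT&Tag library, as did each of the 2 groups of the second experiment of the series, a control siRNA and an siRNA against RB. The sources used here give neither the dose and time of PD0332991 nor the make-up of its control nor the antibody target, and their protocols describe fixed chromatin that was sonicated. The compared lists held 9720 deposited intervals in the control and 3206 under PD0332991 on chromosomes 1 to 22, X and Y, 12926 of the 26756 intervals of all 4 lists and all contigs. Each interval lists 1 summit, the position of its highest signal. The intervals cover 3.03 Gb in the control and 3.05 Gb under PD0332991. They thus span most of the genome, and a listed summit need not be an enriched site. A summit of one list and a summit of the other were taken as the same site where each was the nearest to the other within 250 bp, which gave 1178 pairs. The level at a summit is given in FPM, the treatment fragments there per 1000000 treatment fragments of the library, recovered from the authors' fold and p. The authors' fold is scaled otherwise: before division by the background, 1 fragment adds 0.0141 in the control and 0.00502 under PD0332991. A site can thus be higher in FPM and lower in fold, and all ratios here are of FPM. Levels were recovered on both sides for 1176 pairs, of which 885 reached a geometric mean level of 5 FPM and are described in full, while 291 lay under that minimum. The minimum was a round number and not a property of the sites. Pairs at 5.03 FPM just inside it and at 4.99 FPM just outside it had ratios of both signs. With both summits at a deposited −log10 q of at least 2, only 25 pairs were left.

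CDK4 and CDK6 join D-type cyclins and phosphorylate the retinoblastoma protein RB, which releases E2F factors from RB and lets cells enter S phase. PD0332991 occupies the kinase pocket of CDK4 and CDK6, so that RB stays underphosphorylated and E2F target genes stay repressed. CUT&Tag places sequencing adapters in chromatin near an antibody, and a summit marks where such fragments pile up. A site counted as higher or lower beyond counting error where the 95% counting interval of its log2 ratio, PD0332991 over control, lay wholly above or below the median ratio of the 885 pairs, which was 0.20 (0.17 to 0.24). With 1 library a side these calls compare 2 libraries and have no replicate check. Fewer cells with signal at a site and less signal per cell cannot be told apart.

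At the ends of protein-coding genes, 43 of 603 pairs were higher under PD0332991 (7.13%) and 33 were lower (5.47%). The sequences upstream of some of these genes are shown because their base composition differed between the 2 directions. Of the 497 pairs that lay within 1000 bp of an annotated gene start, the 30 higher ones had a median GC content of 74.5% in the RefSeq window of 300 bases around the start, the 27 lower ones 68.3% and the 440 within counting error 69.3%. The median over 15843 promoter windows was 62.7%. The first sequences below are those of genes whose site was higher, and the later ones those of genes whose site was lower. Each gives the 250 bases before the start from RefSeq (GRCh38.p14), 5′ to 3′ on the strand of the gene. Capitals mark matches, on either strand, to GGGCGG (SP/KLF factors), CCAAT (NF-Y), CCGGAAG (ETS factors), TGACGT (the core of the cyclic AMP response element, CRE) and CACGTG (E-box), and neighbouring matches can overlap.
Higher, WDR91, chr7:135211527-135211776, minus strand: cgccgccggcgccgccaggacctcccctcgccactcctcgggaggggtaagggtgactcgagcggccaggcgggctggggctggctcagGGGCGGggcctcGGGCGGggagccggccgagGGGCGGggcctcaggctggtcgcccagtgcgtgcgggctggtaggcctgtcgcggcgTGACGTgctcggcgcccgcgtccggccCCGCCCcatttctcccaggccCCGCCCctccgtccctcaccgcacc
Higher, RNPC3, chr1:103525449-103525698, plus strand: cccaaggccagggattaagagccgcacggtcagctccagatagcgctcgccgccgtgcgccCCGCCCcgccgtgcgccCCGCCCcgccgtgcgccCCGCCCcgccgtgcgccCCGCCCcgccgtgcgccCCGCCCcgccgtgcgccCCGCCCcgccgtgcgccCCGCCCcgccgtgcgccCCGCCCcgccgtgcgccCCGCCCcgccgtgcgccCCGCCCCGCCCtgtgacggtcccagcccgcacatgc
Higher, RANBP17, chr5:170861768-170862017, plus strand: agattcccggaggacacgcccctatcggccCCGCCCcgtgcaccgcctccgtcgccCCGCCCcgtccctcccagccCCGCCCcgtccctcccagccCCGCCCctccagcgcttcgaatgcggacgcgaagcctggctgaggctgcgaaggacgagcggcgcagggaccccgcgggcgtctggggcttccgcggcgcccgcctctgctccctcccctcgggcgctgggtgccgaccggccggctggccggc
Higher, AHR, chr7:17298402-17298651, plus strand: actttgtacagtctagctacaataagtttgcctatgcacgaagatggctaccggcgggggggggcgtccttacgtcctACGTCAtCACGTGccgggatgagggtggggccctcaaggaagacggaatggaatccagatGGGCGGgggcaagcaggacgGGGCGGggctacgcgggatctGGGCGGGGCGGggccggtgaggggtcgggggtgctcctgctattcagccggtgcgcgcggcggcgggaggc
Lower, ZBTB5, chr9:37465451-37465700, minus strand: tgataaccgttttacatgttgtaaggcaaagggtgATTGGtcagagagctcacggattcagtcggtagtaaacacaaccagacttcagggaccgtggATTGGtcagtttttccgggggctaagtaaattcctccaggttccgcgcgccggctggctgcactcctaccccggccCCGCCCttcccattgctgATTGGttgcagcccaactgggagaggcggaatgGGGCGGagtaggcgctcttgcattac
Lower, DRC10, chr12:113221095-113221344, minus strand: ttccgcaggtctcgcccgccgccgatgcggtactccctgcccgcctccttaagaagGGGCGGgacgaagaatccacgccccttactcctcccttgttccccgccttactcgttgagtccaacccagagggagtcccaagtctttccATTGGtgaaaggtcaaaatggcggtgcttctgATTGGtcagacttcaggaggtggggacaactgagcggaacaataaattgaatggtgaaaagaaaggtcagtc
Lower, RALA, chr7:39623322-39623571, plus strand: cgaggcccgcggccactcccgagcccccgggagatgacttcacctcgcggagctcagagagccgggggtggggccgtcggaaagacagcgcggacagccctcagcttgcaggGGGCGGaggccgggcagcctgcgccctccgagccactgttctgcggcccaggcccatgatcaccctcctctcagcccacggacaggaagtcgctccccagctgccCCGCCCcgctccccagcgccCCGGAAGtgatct
Lower, DENND4C, chr9:19230263-19230512, plus strand: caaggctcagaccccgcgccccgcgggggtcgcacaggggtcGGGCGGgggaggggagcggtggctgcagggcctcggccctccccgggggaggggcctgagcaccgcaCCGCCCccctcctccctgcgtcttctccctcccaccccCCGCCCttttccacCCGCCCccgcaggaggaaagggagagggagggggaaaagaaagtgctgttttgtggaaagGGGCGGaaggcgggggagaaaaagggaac

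The upstream sequences of the higher genes WDR91, RNPC3, RANBP17 and AHR were 79.6%, 85.6%, 78.8% and 66.8% G and C. Those of the lower genes ZBTB5, DRC10, RALA and DENND4C were 56.0%, 55.6%, 72.8% and 72.0%, so the ranges overlapped. The RNPC3 sequence held 11 GGGCGG matches, most of them in a tandem repeat. AHR held 4 GGGCGG matches, a CRE core and an E-box. None of these 4 held CCAAT. Of the lower genes, ZBTB5 held CCAAT 3 times and DRC10 held it 2 times, while RALA held CCGGAAG from 13 bases before its start and DENND4C held GGGCGG 5 times. The split was not complete, since TNRC18, higher under PD0332991 and not shown, held 3 CCAAT matches in the same window and was 64.8% G and C. Also not shown were the lower genes LOC124903211 (76.4% G and C, with CCAAT), TMEM52 (71.6%) and FAM227B (69.6%), the last 2 without CCAAT. The sequences shown thus part more cleanly than all of those read. Over all pairs at gene starts, CCAAT was present in the 300-base window of 5 of 30 higher sites (16.7%, 95% interval 5.64 to 34.7), of 14 of 27 lower sites (51.9%, 31.9 to 71.3) and of 191 of 440 sites within counting error (43.4%), against 36.4% of all promoters. GGGCGG was present in 93.3%, 77.8% and 84.1% in that order, against 58.5% of all promoters, and the ETS motif in 6.67%, 18.5% and 17.5%, against 14.2%. The CRE core was present in 18.1% of all windows with a pair at the start, against 9.67% of all promoters, with 6 of 30 higher and 4 of 27 lower sites. The E2F motif TTTCCCGC was present in 1 higher, 1 lower and 13 other windows, which is 3.02% of windows with a pair against 2.18% of all promoters. The second E2F form, TTTGGCGC, was present in 3 windows with a pair (0.604%, against 0.89% of all promoters). A match describes the letters of the window and is no measure of binding.

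The ratios, from which the calls are made, were also set beside base composition and motifs. Where the GC content was highest (74.3% to 88.7%) the median log2 ratio was 0.27, with 16 of 124 sites higher and 5 lower. Where it was lowest (27.7% to 62.7%) the median was 0.14, with 5 of 132 higher and 10 lower, and in the 2 groups between (124 and 117 pairs) it was 0.14 in each. Sites with CCAAT had a median of 0.09 over 210 pairs, with 5 higher and 14 lower, and sites without it had 0.23 over 287 pairs, with 25 higher and 13 lower. Median control levels were 13.2 and 13.0 FPM for sites with and without CCAAT, and 15.9 and 12 FPM for the groups of highest and lowest GC content, and the number of calls depends on level. Sites with and without GGGCGG had medians of 0.18 and 0.17 over 419 and 78 pairs. Sites with and without the ETS motif differed little, at 0.15 and 0.18, as did those with and without the CRE core, at 0.16 and 0.18. Base composition also enters amplification and sequencing of a library, and its part in these differences was not tested.

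**Figure D1:**
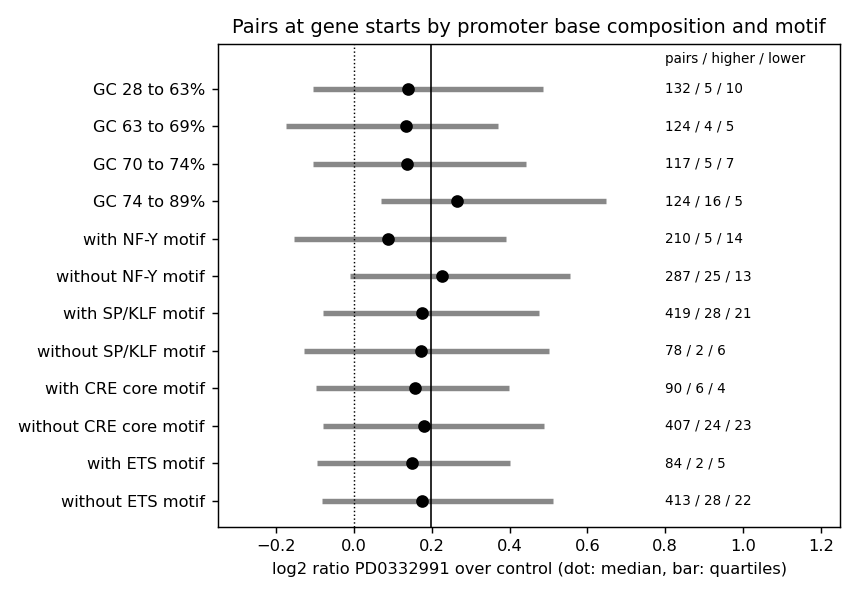
Log2 ratio of the level under PD0332991 over the control (horizontal axis) for the 497 pairs at gene starts, split by GC content of the promoter window and by presence of a motif. Dots are medians and bars span the quartiles, the solid line is the median of all 885 pairs and the dotted line equal levels. The group of highest GC content stands to the right with 16 higher and 5 lower sites, and sites with the NF-Y motif stand to the left with 5 higher and 14 lower.

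Among the gene-end sites that were higher, WDR91, which acts in endosome maturation, showed the largest ratio. Its control summit at position 135211494 of chromosome 7 (hg38), near the start, had 3.66 FPM (9 fragments). Its PD0332991 summit, at position 135211687, had 18.9 FPM (36 fragments). The log2 ratio was 2.36 (95% counting interval 1.28 to 3.60). RNPC3, a protein of the minor spliceosome, had 4.88 FPM in the control and 20.9 under PD0332991 (2.1, 1.14 to 3.17). Both sites were among the low ones of the control and of intermediate height under PD0332991. AHR, the aryl hydrocarbon receptor, a transcription factor switched on by small ligands, went from 4.88 to 13.6 FPM (1.48, 0.44 to 2.60). RANBP17, of the exportin family, went from 3.25 to 11.5 FPM (1.82, 0.60 to 3.20). ANKRD50, which acts in recycling from endosomes, went from 6.91 to 18.3 FPM (1.41, 0.53 to 2.34), and RAD21, the cohesin subunit cut at anaphase, from 2.85 to 9.95 (1.81, 0.49 to 3.30). These 6 sites rested on 7 to 17 fragments in the control, and their intervals were wide. The paired summits lay 193 bp apart at WDR91, 224 bp at RNPC3 and 177 bp at ANKRD50, against a median of 35 bp over all kept pairs. These 3 would not pair within 100 bp, and their 2 levels are not from the same base.

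Sites of larger height gave narrower intervals. TMEM87B, a Golgi membrane protein gene, had 234 FPM in the control and 504 under PD0332991 (log2 ratio 1.10, 0.95 to 1.26), from 576 and 962 fragments. AK7, an adenylate kinase of motile cilia, had 28.5 and 70.2 FPM (1.30, 0.87 to 1.74). TRIB1, a pseudokinase gene of the immediate early class, had 39.0 and 83.3 FPM (1.09, 0.72 to 1.47). These sites at least doubled in level between the 2 libraries. The authors' fold at them was lower under PD0332991 than in the control. It was 9.07 in the control and 5.83 under PD0332991 at TMEM87B, 1.98 and 1.67 at AK7, and 2.31 and 1.80 at TRIB1. At WDR91 (1.12 and 1.18) and RNPC3 (1.17 and 1.20) the fold was higher under PD0332991. The site shared by the starts of LMF2, a lipase maturation factor, and NCAPH2, a condensin II subunit, had 82.2 and 161 FPM (0.97, 0.71 to 1.23). Its summits in the 2 lists lay 139 bp apart. TNRC18 had 24.8 and 47.7 FPM (0.94, 0.46 to 1.43). All of the 11 higher sites named here had a summit within 250 bp in the control siRNA library too, at 2.87 FPM (RAD21) to 197 FPM (TMEM87B).

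Among the lower gene-end sites, MXD3 had the bound farthest from the median ratio. MXD3 partners with MAX and competes with MYC. Its site at position 177312091 of chromosome 5, 661 bases inside the gene, had 31.7 FPM in the control and 15.2 under PD0332991 (log2 ratio -1.06, -1.73 to -0.43). ZBTB5, a zinc finger repressor gene, had 20.3 and 9.95 FPM (-1.03, -1.88 to -0.24). LMNB1, which encodes lamin B1 of the nuclear lamina, had 13.8 and 6.28 FPM (-1.14, -2.22 to -0.15). The levels of these 3 sites under PD0332991 were 0.479, 0.489 and 0.455 times those of the control. RALA, a small GTPase, had 11 and 4.19 FPM (-1.39, -2.74 to -0.21), and the start shared by FAM227B and DTWD1 had 9.76 and 3.67 (-1.41, -2.87 to -0.15). The kinesin gene KIF12 had 15.9 and 7.86 FPM (-1.01, -1.98 to -0.12). DENND4C, an activator of RAB GTPases, had 31.7 and 19.9 FPM (-0.67, -1.27 to -0.10), and the start shared by DRC10, of the ciliary dynein regulatory complex, and the ion channel gene TPCN1 had 17.1 and 9.43 (-0.86, -1.74 to -0.03).

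The other 4 of the 12 lower sites were 2 high ones near chromosome ends and 2 whose call rests on the centring. LOC124900172 on chromosome 4 had 197 and 137 FPM (-0.53, -0.75 to -0.31), and LOC124905351, 10.5 kb from the end of chromosome 3, had 283 and 205 (-0.46, -0.64 to -0.28). TMEM52 had 59.8 and 46.1 FPM (-0.38, -0.77 to 0.02), and the start shared by LOC124903211 and IRS2, an adaptor of the insulin receptor, had 11 and 5.24 (-1.07, -2.28 to 0.02). The intervals of the last pair reach past equal levels, so both were lower only relative to the median shift. The same held in all for 38 of the 67 lower sites, since the interval of 29 lay wholly below equal levels.

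**Figure D2:**
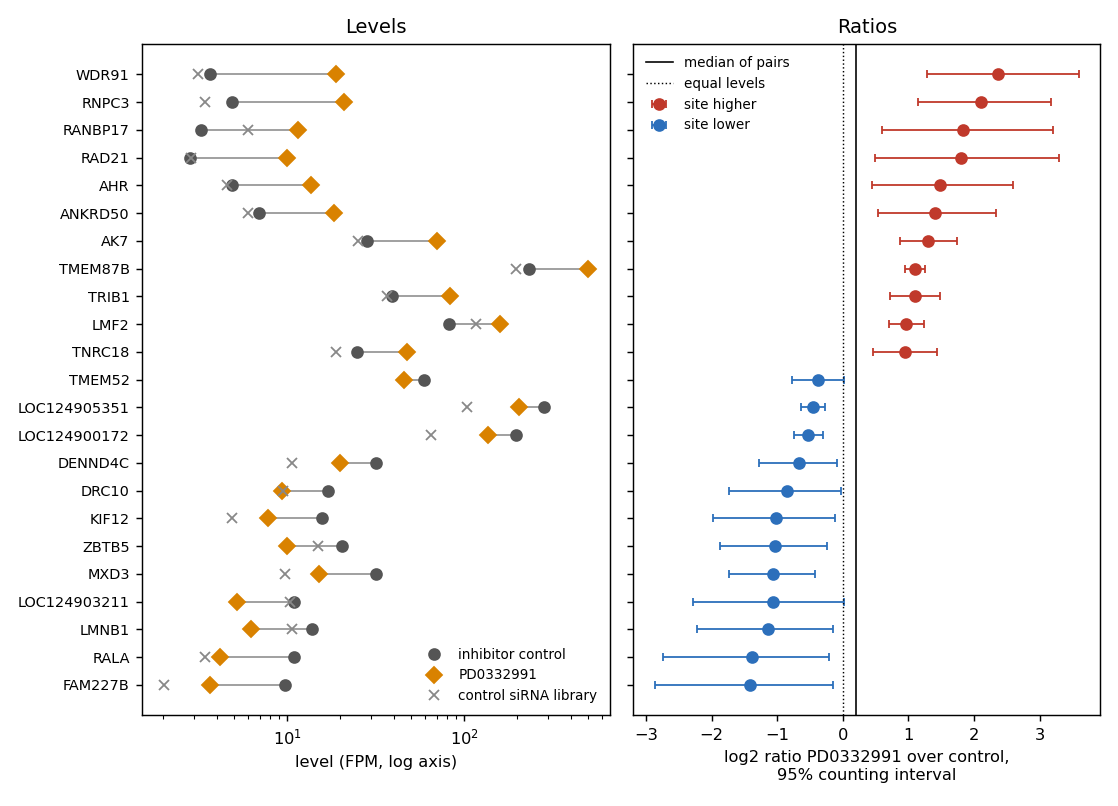
Levels (left, FPM on a log axis) and log2 ratios with 95% counting intervals (right) for the 11 higher and 12 lower gene-end sites named in the text. Left, grey dots are the inhibitor control, orange diamonds PD0332991 and crosses the control siRNA library. WDR91 heads the list with 3.66 and 18.9 FPM, and FAM227B closes it with 9.76 and 3.67.

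The control siRNA library, which shares no sample with the compared pair, gives the level of these sites in the control of another experiment. Of the 81 higher sites 72 had a summit there within 250 bp, and of the 67 lower sites 52 did. Over the 709 of 885 sites with one, the inhibitor control lay above the control siRNA library by a median of 0.61 on the log2 scale and PD0332991 by 0.84. At higher sites the medians were 0.19 for the inhibitor control and 1.22 for PD0332991. At lower sites they were 1.20 and 0.65. So at higher sites both libraries departed from their overall medians by about the same amount and in opposite directions, and at lower sites the inhibitor control departed more than PD0332991 did. At MXD3 the control siRNA library had 9.77 FPM, under both the control (31.7) and PD0332991 (15.2), and at RALA it had 3.45. At ZBTB5 (14.9), LMNB1 (10.6) and LOC124903211 (10.3) it lay between the control and PD0332991. At WDR91 it had 3.16 FPM and at AK7 25.3, each near the inhibitor control. At LMF2 it had 118 FPM, between the control (82.2) and PD0332991 (161), and at RANBP17 6.04, between 3.25 and 11.5. The sites were chosen by the ratio of the first pair, which by itself places its control low at higher sites and high at lower ones.

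Away from gene ends, 72 of 282 pairs lay beyond counting error (25.5%, 95% interval 20.5 to 31.0), 38 higher and 34 lower. At gene starts the share was 57 of 497 (11.5%, 8.80 to 14.6). Over all 885 pairs it was 16.7%, with 81 higher (9.15%) and 67 lower (7.57%). The spread of the log2 ratio beyond what counting gives had an SD of 0.45 away from gene ends and 0.27 at gene ends. The difference varied with level. At 50 to 100 FPM this SD was 0.69 away from gene ends and 0.17 at gene starts, and at 100 FPM or more 0.28 and 0.31. Inside genes but away from their ends 33 of 136 pairs were beyond counting error, and between genes 39 of 146. Levels differed between the classes, with a median control level of 18.3 FPM away from gene ends and 13.0 at gene starts. Pairs of 100 FPM or more were 47 of the 282 away from gene ends and 16 of the 497 at gene starts. The shares called in the 2 classes are thus not at like levels. Over all pairs the share called was 9.19% at 5 to 10 FPM, 20.3% at 20 to 50 and 46.4% at 100 FPM or more. At 50 to 100 FPM it was 15 of 30 away from gene ends (31.3 to 68.7%) and 4 of 31 at gene starts (3.63 to 29.8%), and at 100 FPM or more it was 21 of 47 and 8 of 16.

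**Figure D3:**
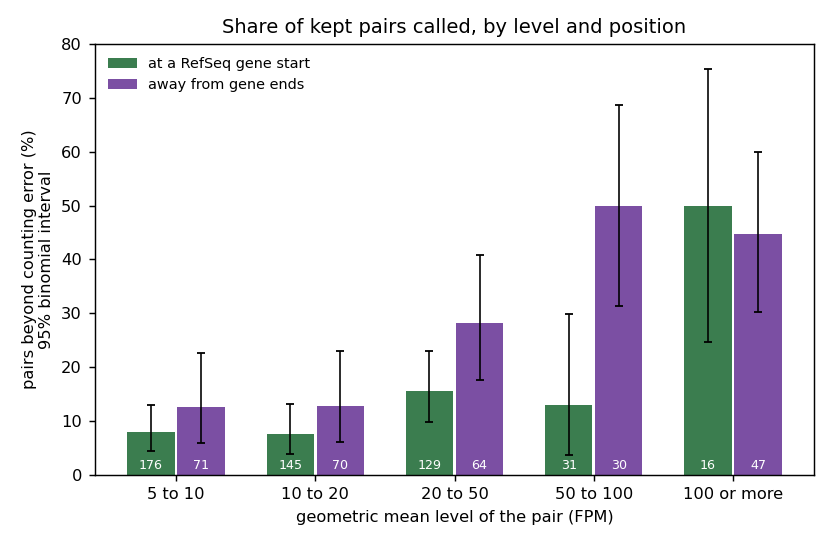
Share of kept pairs beyond counting error in either direction (vertical axis, percent, with 95% binomial intervals) by the geometric mean level of the pair in FPM, at gene starts (green) and away from gene ends (purple). Numbers in the bars are pairs. The intervals of the 2 classes part at 50 to 100 FPM, with 15 of 30 against 4 of 31, and overlap at the other levels.

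Among sites away from gene ends, the 3 higher and 3 lower ones described here are those whose counting interval lay farthest from the median ratio, a ranking by interval and not by ratio. A site at position 32916483 of chromosome 2, 30476 bp from LTBP1, had 57.8 FPM in the control and 163 under PD0332991 (log2 ratio 1.5, 1.21 to 1.80). A site inside DNPEP, an aspartyl aminopeptidase gene (position 219388019 of chromosome 2), had 37.8 and 90.6 FPM (1.26, 0.89 to 1.64), and a site on chromosome 13 (position 55971696), far from any protein-coding gene, had 2.85 and 13.6 (2.26, 1.02 to 3.71). In the other direction, a site 3305 bp from ZNF124 on chromosome 1 (position 247118622) had 111 and 31.4 FPM (-1.82, -2.24 to -1.41). Its log2 ratio was the lowest among sites with a geometric mean above 50 FPM. Its summits in the 2 lists lay 97 bp apart, and those of the DNPEP site 133 bp. At the ZNF124 site the control siRNA library had 31.6 FPM and the RB siRNA library 27.6, both near the PD0332991 level. A site 60417 bp from YTHDF1 on chromosome 20 (position 63135020) had 84.2 and 32.5 FPM (-1.37, -1.81 to -0.96), and a site inside FMN2, an actin-nucleating formin gene (position 240184984 of chromosome 1), had 16.3 and 4.19 (-1.96, -3.26 to -0.84). The control siRNA library had 28.7 FPM at the YTHDF1 site and 3.74 at the FMN2 site, and 67.5 and 29.3 at the LTBP1 and DNPEP sites.

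**Figure D4:**
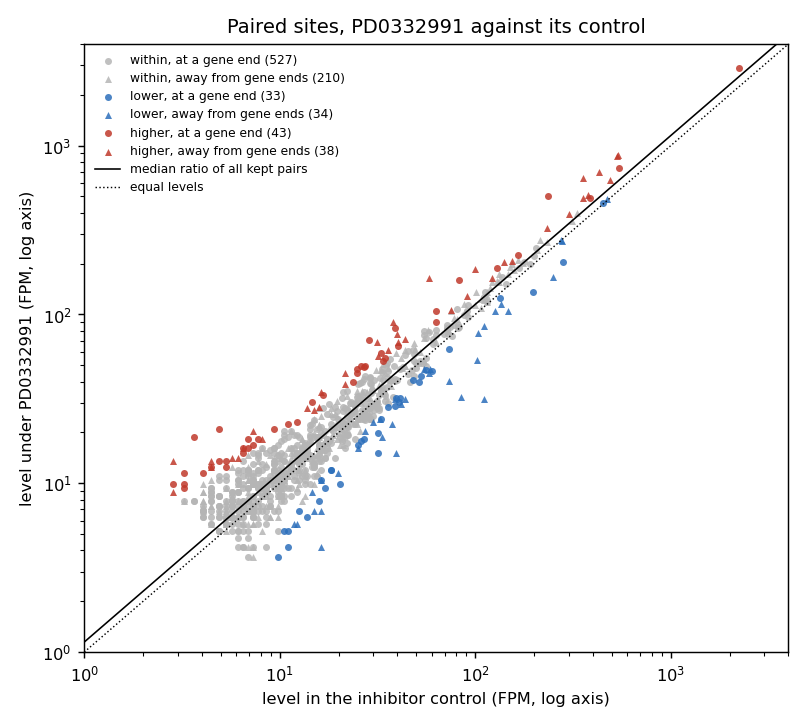
Level of each of the 885 kept pairs in the inhibitor control (horizontal) and under PD0332991 (vertical), both in FPM on log axes. Circles are sites at gene ends and triangles sites away from them, red is higher and blue lower beyond counting error, the solid line is the median ratio and the dotted line equal levels. Most sites lie along the solid line, with 43 red and 33 blue circles and 38 red and 34 blue triangles off it.

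CIMAP1D on chromosome 19 had the highest level in both libraries, 2224 and 2882 FPM (log2 ratio 0.37, 0.32 to 0.43). Among the pairs at gene ends it was followed by WDR27 with 545 and 738 FPM (0.44, 0.33 to 0.55), MUC8 with 449 and 457 (0.02, -0.11 to 0.15) and BRD3OS with 386 and 490 (0.34, 0.21 to 0.47). CASP9, the initiator caspase of the mitochondrial death pathway, had 205 and 248 FPM (0.27, 0.09 to 0.45), and the site at TMEM276-ZFTRAF1 and KIFC2 had 200 and 223 (0.16, -0.03 to 0.35). The 5469 and 5502 fragments at CIMAP1D gave an interval that lay above the median ratio at a small difference. MUC8 lay below the median ratio at nearly equal levels. TMEM87B, below MUC8 and BRD3OS in the control, stood above both under PD0332991.

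More than 1 in 2 paired sites lay near a gene start. Of the 885 pairs, 68.1% (65.0 to 71.2) were within 1000 bp of a gene end, which covers 2.36% of bases, and 56.7% (53.4 to 60.02) within 1000 bp of an annotated start, which covers 0.962%. Over all listed summits the gene-end shares were 29.3% in the control and 40.2% under PD0332991. The 497 pairs assigned to a start lay at a median of 97 bases upstream, 351 of them upstream and 146 downstream, with 371 within 300 bp, and at 116 of the sites more than 1 gene had an end. Paired summits were a median of 35 bp apart, and 83 pairs had the same base in both lists.

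Counts for genes of the pathway that PD0332991 acts on were too few to set them apart from other genes. Of the 25 cyclins, CDKs, their inhibitors and RB family genes listed, 6 had a gene-end summit in the control and 2 under PD0332991, and 0 had a pair. Among all 20037 protein-coding genes, 3371 had one in the control (16.8%), 1549 under PD0332991 (7.73%) and 742 a kept pair (3.70%), of which 49 genes lay at a higher and 43 at a lower site. CDK4, the kinase inhibited, had 42.3 FPM at its start in the control, while the PD0332991 interval over it listed no more than 32.5 FPM, which lies lower beyond counting error (log2 ratio of the limit -0.38, -0.86 to 0.09, against the median of 0.20). CCND1, which encodes cyclin D1, had 11.8 FPM in the control, at a summit 13.4 kb from the position taken as its start and thus at the other end of the gene. The interval over CCND1 under PD0332991 had its summit of 28.3 FPM elsewhere, so that the level at CCND1 was not listed. MYC had 2.09 FPM under PD0332991 and no listed summit in the control. RB1, ETS1, E2F1, CDK6, CDKN1A and KLK3 had no summit at an end in either list.

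E2F targets of the G1/S transition had summits at 8 of 38 members in the control and at 1 under PD0332991. PCNA, the sliding clamp of DNA polymerases, was the 1 with a kept pair, at 15.9 and 14.7 FPM (log2 ratio -0.11, -0.87 to 0.62). Of the 24 G2/M genes, LMNB1, named above, was the 1 with a kept pair. The lists of androgen receptor and prostate lineage genes (22), reported ETS1 targets (26), neuroendocrine genes (15), proteasome subunits (39), antigen presentation genes (26) and senescence-associated secreted factors (21) had no kept pair. Prostate lineage genes had a gene-end summit at 2 members in the control and 3 under PD0332991, and markers of blood, vessel, liver, stroma and basal cells at 0 of 20 in both, so the labelled cell type could not be checked from lineage genes. None of these counts measures loss, since an interval lists only its highest summit.

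In the network of MYC, MAX and their partners, 3 of 13 members had a kept pair. MXD3 was lower (31.7 and 15.2 FPM), while MXD1 had 24.8 and 30.9 FPM (log2 ratio 0.32, -0.22 to 0.86) and MAX 7.73 and 9.95 (0.36, -0.63 to 1.36), both within counting error. MNT, another MAX partner that represses transcription, had 96.4 FPM under PD0332991 with no partner in the control, where the nearest listed summit, 1617 bp away, had 63.0. Of the 30 immediate early genes 5 had a kept pair, with TRIB1 higher and EGR1 (28.5 and 27.8 FPM), DUSP1 (11.8 and 10.5), KLF6 (9.76 and 9.43) and FOSL2 (8.54 and 15.2) within counting error. Of the 22 p53 targets 4 had a kept pair, none beyond counting error, with a median log2 ratio of 0.40 against 0.18 over the 603 gene-end pairs. RRM2B had 43.5 and 57.6 FPM, FDXR 14.2 and 18.9, and DDB2 13.8 and 11.

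Chromatin and RNA genes gave single calls in both directions. Of 40 spliceosome genes 5 had a kept pair, with RNPC3 higher and SRSF2, a splicing factor, lower at 25.2 and 16.8 FPM (log2 ratio -0.59, -1.25 to 0.05). Replication-dependent histone genes had 4 members at 2 sites: the shared start of H2AC11 and H2BC11 was lower, at 18.3 and 12 FPM (-0.60, -1.4 to 0.15), and that of H2AC18 and H3C14 had 31.3 and 28.3 (-0.15, -0.68 to 0.37). CHD4, the ATPase of the NuRD complex, was lower at 73.6 and 62.3 FPM (-0.24, -0.59 to 0.10), while HDAC1 of the same complex had 9.35 and 10.5 and KMT2C 13.4 and 16.8. The intervals of SRSF2, H2AC11 and CHD4 include equal levels, so that these too were lower only relative to the median shift. Of the 21 cohesin, condensin and lamina genes 4 had a kept pair, with RAD21 higher, LMNB1 lower, and CTCF (28.9 and 39.3 FPM) and EMD (81.3 and 83.3) within counting error. Numbered zinc finger genes had 12 kept pairs among 509 members, with ZNF511 higher at 24.8 and 45.0 FPM (0.86, 0.37 to 1.36) and a list median of 0.36. The DNA repair genes RAD54L and BARD1, translation factors (4 pairs), mitochondrial ribosomal proteins (2 pairs) and the ETS factors GABPA and ELF1 had none beyond counting error.

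Sites listed on one side alone were kept apart. Of 2292 control summits of at least 5 FPM, 837 had a partner under PD0332991 and 1455 did not, and of 1449 summits under PD0332991, 937 had a partner in the control and 512 did not. The lists differ in resolution: intervals were a median of 189 kb wide in the control and 557 kb under PD0332991, where the background had 9592 read ends against 34562. For 1191 of the 1455 control sites the PD0332991 interval over the site listed a summit at least as high, so a lower one would not be seen. That held for 183 of the 512 PD0332991 sites. Where the covering interval listed a lower summit, its level is an upper limit for the site, and this limit was lower beyond counting error at 28 control sites (1.92%) and at 30 PD0332991 sites (5.86%). No interval of the other list with a recovered level covered 99 and 135 of the sites, so no limit could be set for them. They included a site at the start of FARP2, an exchange factor for small GTPases, with 1148 FPM under PD0332991 (position 241355778 of chromosome 2), and one at the start of SPATC1L with 324 FPM in the control (position 46184593 of chromosome 21), both chosen after their values were seen.

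At gene ends 8 control sites had a limit lower beyond counting error under PD0332991. SPTSSB, a small subunit of serine palmitoyltransferase, had 9.35 FPM in the control (23 fragments) and at most 1.57 under PD0332991 (3 fragments), a log2 ratio of -2.57 (-4.95 to -0.85). E2F8, an atypical E2F that represses transcription, had 6.51 and at most 2.09 FPM, and FZD4, a Wnt receptor, had 11.8 and at most 5.24. These 3 sites were low in the control, with 16 to 29 fragments. PTPN12, a tyrosine phosphatase gene, had 11 and at most 5.76 FPM, ABI1, of the WAVE actin complex, 17.5 and at most 11.5, and WDFY2, a protein of endosomes, 24.4 and at most 17.3. The intervals of these last 3, of CDK4 and of PPP2R5C include equal levels, as do those of 12 of the 28 control sites, so their limits were lower only relative to the median shift. PPP2R5C, a regulatory subunit of phosphatase PP2A, had 144 FPM in the control and a PD0332991 summit of 125 FPM 317 bp away, just outside the pairing distance. The PD0332991 summit that set the limit at PTPN12 lay 312 bp away, also near that distance. CDK4 is described above.

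In the other direction 6 gene-end sites of PD0332991 had a limit lower beyond counting error in the control. TARS3, a threonyl-tRNA synthetase gene, had 20.9 FPM under PD0332991 and at most 5.29 in the control. LRP12, an LDL receptor relative, had 6.81 and at most 1.63 FPM, ZNF592 34 and at most 15.5, PRDM9, the meiotic histone methyltransferase, 27.2 and at most 13.4, and ANKRD30BL 22.5 and at most 11.4. The control summits that set the limits at LRP12, ZNF592 and PRDM9 lay 339, 324 and 267 bp away, near the pairing distance. Away from gene ends, a site inside PRDM11 had 26.2 FPM under PD0332991 (50 fragments) and at most 1.22 in the control (3 fragments, log2 ratio 4.42, 2.79 to 6.75), and a site inside TP73, of the p53 family, had 49.8 and at most 16.7. A control site 29607 bp from FAM153A had 41.1 FPM and at most 6.81 under PD0332991, and a control site inside the clock gene PER2 had 16.3 and at most 4.71. These 4 sites were chosen after their values were seen. The PD0332991 summit that set the limit near FAM153A lay 266 bp away, near the pairing distance.

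**Figure D5:**
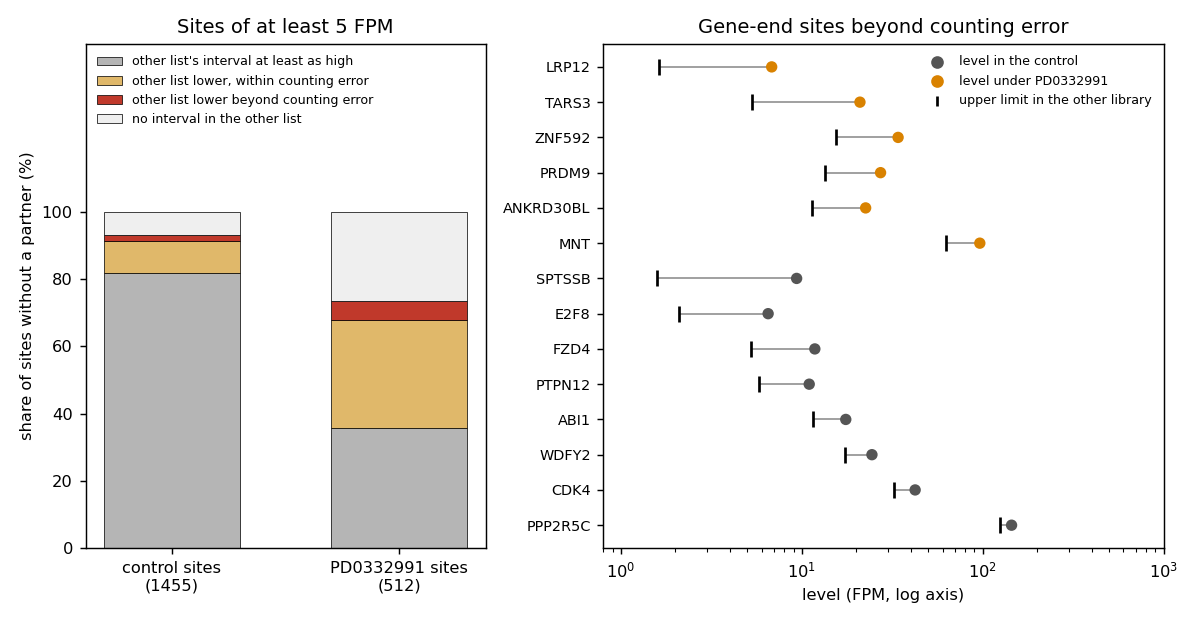
Left, sites of at least 5 FPM without a partner, as shares (percent) by what the other list holds over them: 81.9% of 1455 control sites and 35.7% of 512 PD0332991 sites lie in an interval of the other list with a summit at least as high. Right, gene-end sites whose limit is lower beyond counting error, with the level in FPM (dot, log axis) and the upper limit in the other library (bar), from SPTSSB (9.35 and at most 1.57) and TARS3 (20.9 and at most 5.29) to PPP2R5C.

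To compare the lists without pairing, the highest site of each library was taken over the span of each PD0332991 interval. Of 1010 spans with a highest site of at least 5 FPM, the same site was highest in both libraries in 711 (70.4%). That share was 56.5% for spans whose site had 5 to 10 FPM and 90.4% at 100 FPM or more. The median log2 ratio of the highest sites was 0.18 (0.16 to 0.21), close to that of the pairs, with 107 spans higher (10.6%) and 71 lower (7.03%) than the median of the spans. Spans where another site was highest had a median of 0.22 over 299. By chromosome, among those with at least 20 kept pairs, the median ratio ran from 0.05 on chromosome X to 0.47 on chromosome 21, where 10 pairs lay in the first 9 Mb, which hold ribosomal RNA repeats, and had a median of 0.45.

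Of the named sites called under PD0332991, 25 also had a pair in the RB siRNA experiment, where 5 were called in the same direction, 7 in the opposite one and 13 lay within counting error. MXD3 had 9.77 FPM with control siRNA and 22.7 with RB siRNA (log2 ratio 1.22, 0.57 to 1.88), higher than the median ratio of that experiment (0.45), while it was lower under PD0332991. Of 749 pairs in that experiment 57 were higher (7.61%) and 43 lower (5.74%). WDR91 was higher in both, at 3.16 and 9.49 FPM with RB siRNA (1.59, 0.49 to 2.77), and LMF2, higher under PD0332991, lay below the median there (0.19, -0.03 to 0.40). The difference between the experiments was not tested.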

How the data were processed

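Summits of the control and the PD0332991 lists were compared, with the siRNA lists beside them. Reads were handled with bcl2fastq 2.17, Trimmomatic 0.33, Bowtie2 and MACS2 2.1.0 on hg38, per the submitters' processing notes, which give no order or settings. In each list, the authors' score is a multiple of the −log10 p, the authors' fold is a linear ratio of treatment to background at the summit, and its deposited −log10 p and −log10 q apply to that position. The summit offset of the deposited lists was added to the interval start.

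Fold and p were solved for the background and a whole number of treatment fragments n (pseudocount 1, Poisson upper tail). Solutions were whole within 0.05 for 100% of summits at the genome-wide background, and 3 control summits and 1 of the siRNA control were left without a level. Treatment fragments came to 2458774 in the control and 1909343 under PD0332991, so 5 FPM is 12.3 and 9.55 fragments. These totals rest on an assumed background window of 10 kb and genome size of 2.7 Gb, and ratios do not depend on the genome size. The solution and the calls were tried on data simulated under the same model, which cannot check that model or the assumed window. Ratios carry exact conditional 95% counting intervals, shares exact binomial (Clopper-Pearson) ones, and both cover counting error only. Fragments copied by amplification are not independent.

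Gene positions came from RefSeq (GRCh38.p14, 20037 protein-coding genes, of which 15842 had a start and strand). All 497 pairs at a start matched a promoter entry.

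The gene lists, motifs and named-gene rule were chosen with earlier results of these data known. Named were the 8 highest gene-end pairs, the 12 higher and 12 lower ones with the bound farthest from the median ratio, up to 8 gene-end sites a side without a partner and with a lower limit, list members beyond counting error, 9 fixed genes, and 6 pairs away from gene ends. The results of 2 genes that these choices would name are not reported here. Alternatives covered pairing distance, minimum level, contigs, q, window, centre, call rule and gene distance. No test between groups was possible with 1 library a group. Python 3.11.15 with numpy 2.4.6, pandas 2.3.3, scipy 1.17.1 and matplotlib 3.10.9 were used.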

Additional observations from a re-analysis of the deposited data

Results flagged for a closer look

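Sites on contigs outside the main chromosomes were not part of the comparison, and 8 of 17 pairs there lay above the median ratio of the kept pairs beyond counting error, while 1 lay below. Over the kept pairs 9.15% were higher and 7.57% lower, and among those of 100 FPM or more 30.4% and 15.9%. On a random contig of chromosome 22 (chr22_KI270733v1_random) the levels were 725 FPM under PD0332991 against 372 in the control at position 123230, 596 against 331 at position 168409, 168 against 119 at position 172693 and 414 against 280 at position 174087. On chrUn_GL000220v1 they were 718 against 416 at position 112156, 667 against 364 at position 150352 and 732 against 421 at position 156128, and on chrUn_GL000195v1 283 against 198 at position 32464. The log2 ratios ran from 0.49 to 0.96, against the median of 0.20 over the kept pairs, and each comes from 1 library a side.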

How the results depend on the processing

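No paired analysis was possible because each group held 1 library, so no replicate could be left out either. Of 51 alternative values for the main results, 37 stayed on their side or within the allowed range, 14 moved and none reversed. With both summits at a −log10 q of at least 2, 25 pairs were left, with a median log2 ratio of 0.37, 5 higher and 6 lower. Without centring, 160 pairs were higher and 29 lower, against 81 and 67 with it, and 2 of the 24 named sites lost their call: TMEM52 (log2 ratio -0.38) and LOC124903211 (-1.07). A 2-fold rule gave 31 higher and 27 lower. The share of pairs at a gene end was 61.4% within 500 bp and 73.3% within 2500 bp, and that at a gene start 51.4% within 500 bp. With at least 10 FPM, 568 unpaired control sites lay under a summit as high or higher, 18 had a lower limit beyond counting error, and 16 unpaired PD0332991 sites had one. Chosen after seeing the data, leaving out chromosome 21 up to 9 Mb and 100 kb at each chromosome end gave 76 higher and 64 lower among 869 pairs. Depth limits pairs near 5 FPM, which rest on about 10 fragments a side, where the counting SD of the log2 ratio was 0.53.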
